A study of Mus musculus with 36 samples.

Results

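The response of BV-2 cells to 4 h of lipopolysaccharide (LPS, a component of the outer membrane of Gram-negative bacteria) was described from 9 of the 36 RNA-seq libraries of the series. BV-2 is an immortalised mouse microglial line, labelled wild type here, and it stands for cultured microglia-like cells and not for microglia in the brain. The libraries were chosen by their labels as the LPS group at 4 h (replicates 1 to 3, 600 ng/ml), the DMSO group (replicates 4 to 6) and the ethanol (EtOH) group (replicates 4 to 6). Vehicles were at 0.2% and serum was lowered to 0.1% when treatment began in every group. The LPS was in aqueous solution, and the labels name water, DMSO and EtOH as vehicles without saying which of them the LPS-alone cultures received. The labels state 3 independent experiments. Both comparisons used the same 3 LPS libraries, so passing against both vehicles is not 2 independent measurements of LPS. The question was which genes answered LPS early whichever vehicle served as the control.

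LPS is held by CD14 and presented to the receptor TLR4 with its partner MD-2 (gene Ly96). Through the adaptor MyD88 this receptor activates NF-kB and AP-1, transcription factors that switch on cytokine and chemokine genes, and through the adaptor TRIF (gene Ticam1) it leads to interferon-beta, which acts back on the cell to raise interferon-response genes. Among the early targets are inhibitors of the same pathway, such as the NF-kB inhibitor IkB-alpha (gene Nfkbia) and the deubiquitinase A20 (gene Tnfaip3).

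The 9 libraries held 14954118 to 17003612 counted reads, with 14644 to 15012 genes read at least once and 1.99% to 2.25% of reads from mitochondrial genes. In a principal component analysis of the 1000 most variable tested genes, component 1 (62.5% of the variance) placed the LPS libraries at 21.9 to 32.5 and the vehicle libraries at -21.0 to -3.40. Component 2 (16.2%) placed DMSO replicate 5 (17.6), EtOH replicate 5 (9.30) and LPS replicate 2 (9.17) at its high end, with DMSO replicate 6 at 4.59 and the other libraries below 0. These 3 libraries also had the highest summed level of interferon-response genes in their groups, so counts for most gene lists are also given without them. Values of single genes are given with all 9 libraries. Of 18 microglial and macrophage markers, 13 were tested, of which 1 rose (Spi1). Csf1r, Ptprc and Cd68 were well read, with Cd68, the lowest of them, at 4552 to 5224. Siglech had at most 2.11 normalised reads and Gpr34 at most 4.79, so the line lacked some markers of microglia in the brain. The summed level of the 8 fibroblast markers was 3.85 to 8.61 and that of the 8 T cell markers was 74.2 to 106. In both cases LPS and vehicle libraries overlapped. Neuronal markers summed to 158 to 251 in vehicle and 135 to 179 in LPS libraries, nearly all from Map2, with Rbfox3 at 0. Astrocyte markers summed to 1628 to 2945 and 1637 to 2857, mostly from Aldoc, a glycolytic enzyme gene, with Gja1 at 0. Endothelial markers summed to 386 to 710 and 381 to 851, mostly from Vwf. Oligodendrocyte markers summed to 1515 to 1735 in vehicle and 1320 to 1389 in LPS libraries, mostly from Mbp, whose level fell (log2FC -0.31 and -0.37). Whether other cells had a part in these values was not tested, and in RNA from whole cultures fewer cells of a kind and less RNA per cell cannot be told apart.

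Levels below are normalised read counts, that is, reads divided by a size factor computed over the 9 libraries, and a log2 fold change (log2FC) is LPS minus vehicle on log2 of the normalised read count plus 1, which understates the change of low genes. Tests were limma's moderated tests, and a gene passed where its p, adjusted by Benjamini and Hochberg's method, was below 0.05, whatever its fold change. Where a pair of log2FC or adjusted p is given, the first is against DMSO and the second against EtOH, and errors after ± are standard errors with 3 libraries a group.

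Against DMSO, 1609 of 11424 tested genes passed (14.1%), with 7.7% higher and 6.38% lower with LPS. Against EtOH, 1169 of 11491 passed (10.2%), with 5.69% higher and 4.48% lower. Of the 11349 genes tested in both, 936 passed in the same direction in both (8.25%), and 0 passed in opposite directions. Leaving out LPS replicate 3 lowered the shared count to 425, and it was 495 with EtOH replicate 6 absent, 496 with EtOH replicate 4 absent and 573 with DMSO replicate 6 absent. The shared genes divided into 558 that rose (4.92% of those tested) and 378 that fell (3.33%). All 558 and all 378 had LPS libraries entirely outside the range of both vehicles. That separation alone was common, since 12.5% of tested genes lay above both vehicles and 10.7% below both. The median log2FC of all tested genes was 0.00 in both comparisons.

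The rises were larger than the falls. Of the 558 genes that rose, 210 changed by more than 1 on the log2 scale against both vehicles, 69 by more than 2 and 9 by more than 4. The median log2FC of the rises was 0.88 and 0.80. Of the 378 genes that fell, 17 changed by more than 1 and 0 by more than 2, and the medians were -0.52 and -0.49. Small changes made up much of the programme, since 31.5% of the rises and 57.7% of the falls were below 0.5 in at least 1 comparison.

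The genes that rose took 4.30%, 4.65% and 4.41% of all reads in the DMSO libraries, 4.42%, 4.87% and 4.60% in the EtOH libraries, and 7.26%, 7.82% and 7.24% in the LPS libraries. The genes that fell took 2.56% to 2.64% of reads in vehicle libraries and 1.70% to 1.83% with LPS. These shares were fixed in direction by the way the genes were chosen. The gain in reads was spread widely, as the 10 genes that added most gave 19.3% of it. They were Ptgs2 (cyclooxygenase-2), Odc1 (the first enzyme of polyamine synthesis), Cd14, Saa3 (an acute-phase protein), Clec4e (the receptor Mincle), Acod1 (the enzyme that makes itaconate), Cxcl2, Rnf213, Marcksl1 and Hspa5 (an endoplasmic reticulum chaperone). Ptgs2 alone gave 3.40%.

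Of 3999 genes with a vehicle mean of 1000 or more, 226 rose (5.65%), with medians of 0.55 and 0.49. Of the same 3999, 146 fell (3.65%), with medians of -0.41 and -0.40. Of 90 tested genes with a vehicle mean below 10, 27 rose and 0 fell. A gene was tested where at least 3 of the 6 libraries reached 10. A gene below 10 in every vehicle library was tested only through its LPS libraries, so it could not count as a fall. Csf3, Il6, Il36a, Ccl20 and Mmp10 were of this kind.

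The gene with the largest rise was Il1b, which encodes the cytokine interleukin-1 beta. Its level was 1171, 3754 and 1372 in the LPS libraries, 9.63, 39.9 and 14.7 in the DMSO libraries and 7.76, 47.9 and 3.72 in the EtOH libraries. The log2FC was 6.58 ± 0.54 against DMSO and 7.17 ± 0.79 against EtOH (adjusted p 0.00017 and 0.0012). Each LPS library was far above every vehicle library, and the highest value in each group came from LPS replicate 2, DMSO replicate 5 and EtOH replicate 5. Il1a, which encodes interleukin-1 alpha and lies near Il1b on chromosome 2, was at 749.7, 1388 and 715 with LPS, against 8.67, 22.1 and 19.0 with DMSO and 12.6, 13.4 and 17.6 with EtOH. Its log2FC was 5.78 ± 0.36 against DMSO and 5.88 ± 0.26 against EtOH. Il36a, another cytokine of the interleukin-1 family, was at 132 to 177 with LPS and at most 8.41 in any vehicle library (5.19 and 4.48).

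**Figure D1:**
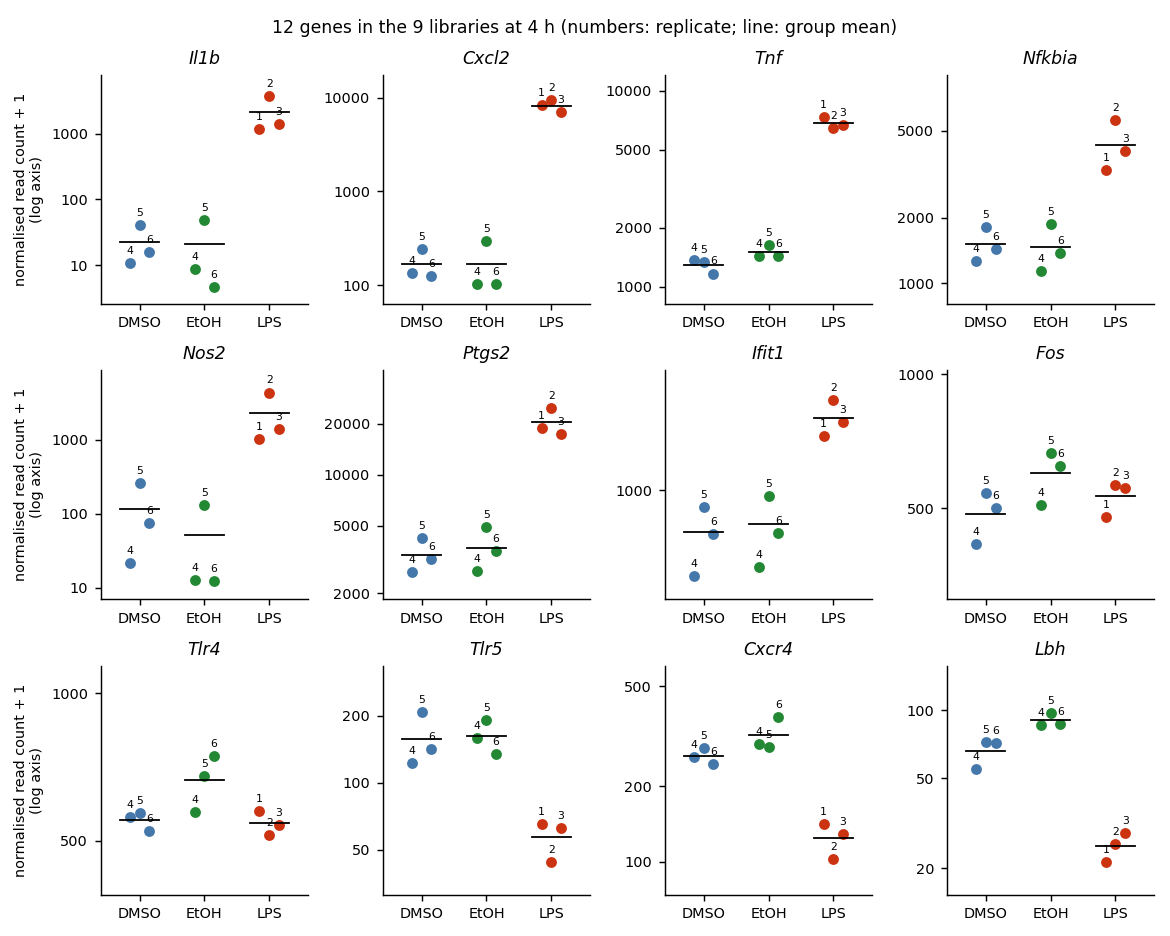
Normalised read count plus 1 (log axis) of 12 genes in each of the 9 libraries at 4 h, by group, with replicate numbers beside the points and a line at each group mean. Il1b, Cxcl2, Tnf, Nfkbia, Nos2, Ptgs2 and Ifit1 lay higher and Tlr5, Cxcr4 and Lbh lower with LPS than in every vehicle library, while Fos and Tlr4 overlapped.

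Cxcl2, a chemokine that draws neutrophils, was at 8367, 9412 and 6991 with LPS, 135, 244 and 124 with DMSO and 103, 293 and 102 with EtOH. Its log2FC was 5.67 ± 0.23 against DMSO and 5.81 ± 0.36 against EtOH (adjusted p 4.1e-06 and 7.1e-05), and the LPS libraries differed from each other by less than 1.5 times. Csf3, which encodes the granulocyte growth factor G-CSF, was at 210.1, 222 and 141 with LPS and at most 5.25 without it (5.87 and 5.75). Ccl20, a chemokine for cells that carry CCR6, was near silence without LPS. It had 110, 92 and 84 reads in the LPS libraries, 0, 0 and 1 in DMSO, and 1, 2 and 0 in EtOH. The ratio of reads was 270 against DMSO (95% exact interval 48.1 to 10698) and 96.9 against EtOH (32.8 to 472). These intervals cover counting error only.

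The matrix metalloproteinases Mmp10 and Mmp13, which cut extracellular matrix, were also among the 12 largest rises. Mmp13 was at 994, 1487 and 721 with LPS, 23.1, 54.6 and 26.3 with DMSO and 24.3, 56.5 and 29.7 with EtOH (4.94 and 4.85). Mmp10 had 41, 73 and 45 reads in the LPS libraries and 0 to 2 in each vehicle library, a ratio of 150 against DMSO (26.5 to 5964) and 53.8 against EtOH (18.1 to 264). The number of reads without LPS was too small to fix either ratio closely. The largest rises also held Nos2 (inducible nitric oxide synthase), Acod1, Lcn2 (an iron-binding protein) and A4galt (a glycosyltransferase that makes the lipid Gb3). A4galt was at 72.4, 107 and 85.7 with LPS and 1.05 to 11.1 without it.

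The 300 bases before the transcription start of Il1b, of a chemokine, of an NF-kB inhibitor and of 2 interferon-response genes are shown, because they hold, in different combinations, short motifs known from LPS-induced promoters. They were read from GRCm39 at the canonical GENCODE transcript and were picked after their values and motifs were seen. Capitals mark matches to the NF-kB kB consensus, to the interferon-stimulated response element (GAAA on each side of any 2 bases), to the AP-1 site TGANTCA (all on either strand) and to the TATA box TATAAA (forward strand), and each sequence runs from 300 bases to 1 base before the start.
Il1b (chr2:129213060-129213359, - strand): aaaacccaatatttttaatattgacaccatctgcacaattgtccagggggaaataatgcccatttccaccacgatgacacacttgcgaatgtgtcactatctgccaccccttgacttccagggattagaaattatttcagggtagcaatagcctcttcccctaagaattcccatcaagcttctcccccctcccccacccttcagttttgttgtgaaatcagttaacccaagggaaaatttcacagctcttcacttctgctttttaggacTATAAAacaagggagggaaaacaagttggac
Cxcl2 (chr5:91051430-91051729, + strand): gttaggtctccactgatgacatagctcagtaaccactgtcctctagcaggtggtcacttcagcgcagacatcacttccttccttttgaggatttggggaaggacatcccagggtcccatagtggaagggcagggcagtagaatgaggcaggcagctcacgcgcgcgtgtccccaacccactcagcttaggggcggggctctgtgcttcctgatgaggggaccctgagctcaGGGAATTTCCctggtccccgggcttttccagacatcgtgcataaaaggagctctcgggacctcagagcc
Nfkbia (chr12:55539433-55539732, - strand): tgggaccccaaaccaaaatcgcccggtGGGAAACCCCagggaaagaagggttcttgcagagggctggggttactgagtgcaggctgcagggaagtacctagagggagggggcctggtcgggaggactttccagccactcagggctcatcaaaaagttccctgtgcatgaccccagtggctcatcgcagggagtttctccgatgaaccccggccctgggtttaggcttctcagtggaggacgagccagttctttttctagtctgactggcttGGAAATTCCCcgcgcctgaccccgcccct
Cxcl10 (chr5:92496749-92497048, - strand): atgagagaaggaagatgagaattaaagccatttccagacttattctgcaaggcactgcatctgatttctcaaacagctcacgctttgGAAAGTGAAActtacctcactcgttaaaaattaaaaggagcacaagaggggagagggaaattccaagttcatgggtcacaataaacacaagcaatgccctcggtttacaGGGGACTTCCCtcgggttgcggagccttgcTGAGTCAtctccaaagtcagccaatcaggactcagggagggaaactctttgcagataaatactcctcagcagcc
Ifit1 (chr19:34617971-34618270, + strand): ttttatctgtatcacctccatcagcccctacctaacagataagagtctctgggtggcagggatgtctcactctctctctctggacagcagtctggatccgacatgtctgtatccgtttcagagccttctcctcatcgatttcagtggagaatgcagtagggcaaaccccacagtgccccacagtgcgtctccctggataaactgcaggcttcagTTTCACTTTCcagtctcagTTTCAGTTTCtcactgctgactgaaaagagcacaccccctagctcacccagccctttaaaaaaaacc

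In this window Il1b held a TATA box that began 31 bases before the start and no kB match, which says only that these letters are not in the window. Cxcl2 held a kB match that began 69 bases before the start. Nfkbia held 2 kB matches, at 273 and 29 bases. Ifit1 held 2 response elements, at 86 and 67 bases. Cxcl10, which is listed here among the chemokines and is also an interferon-response gene, held a response element at 213 bases, an AP-1 match at 74 bases and a pair of kB matches at 104 and 103 bases that overlap in 9 letters.

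The same letters were counted in the windows of 11344 of the 11349 tested genes. A kB match was present in 6.50% of all windows, in 11.3% of the 558 genes that rose, in 14.3% of the 210 that rose by more than 1 and in 18.8% of the 69 that rose by more than 2, but also in 10.8% of the 378 that fell. An AP-1 match was present in 5.62% of all windows and in 10.6%, 20.5% and 29.0% of the same sets of rises, against 5.56% of the falls. The interferon element was in 3.58% of all windows, in 8.60%, 14.8% and 13.0% of the rises and in 1.59% of the falls. The E box CACGTG went the other way, with 8.78% of all windows and 8.24%, 4.76% and 4.35% of the rises. The cyclic AMP response element TGACGTCA was in 2.23% of all windows and in 2.69% of the rises. These shares are descriptions of letters in a fixed window and were not tested.

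**Figure D2:**
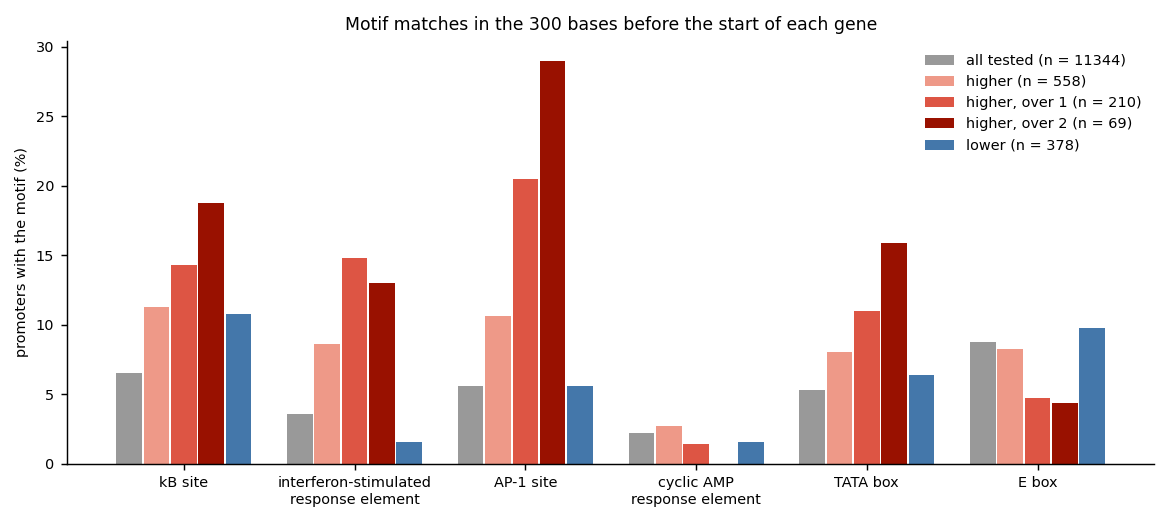
Percent of 300-base windows before gene starts that hold each of 6 motifs, for all tested genes, for genes that rose against both vehicles (in all, by more than 1 and by more than 2 on the log2 scale) and for genes that fell. AP-1 matches ran from 5.62% of all windows to 29.0% of the largest rises, and kB matches from 6.50% to 18.8%.

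Most of the tested cytokine genes rose. Of 21 cytokines listed, 16 were tested, 12 rose against both vehicles and 0 fell (4.92% and 3.33% over all genes). The median log2FC of the 16 was 1.83 and 1.69. Csf3 and Il6 were tested only through their LPS libraries. Besides the interleukin-1 genes, Tnf (tumour necrosis factor) was at 7334, 6417 and 6696 with LPS, 1375, 1336 and 1167 with DMSO and 1437, 1637 and 1428 with EtOH, a log2FC of 2.40 ± 0.08 against DMSO and 2.18 ± 0.08 against EtOH. Its LPS values lay within 1.2 times of each other and the groups were far apart. Il1rn, which encodes the antagonist of the interleukin-1 receptor, also rose (2.63 and 2.08), as did Il6 (3.01 and 2.99), Il27 (2.27 and 2.09) and Csf1, the growth factor of microglia (1.4 and 1.31). Il6 stayed low, at 24.5, 57.4 and 21.4 with LPS and 1.91 to 3.88 without. The smallest rise was that of Tgfb1 (0.35 and 0.34). Tnfsf9 (0.25 and -0.01), Tnfsf15 (2.41 and 2.16) and Gdf15 (1.21 and 1.28) did not pass against both vehicles. Il18 was at 0.72 and 0.69 and did not pass (adjusted p 0.27 and 0.3).

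Several cytokines known from LPS-treated macrophages were barely read. Ifnb1 (interferon-beta) had 4, 2 and 7 reads in the LPS libraries, 1 in all DMSO libraries and 0 in all EtOH libraries. Il10 had 3, 13 and 10 reads with LPS and 0 to 3 in each vehicle library. Il12b had 0, 4 and 3 reads with LPS and 0 in every vehicle library, and Il12a at most 5 in any library. They were below the level set for testing, as was Csf2 (GM-CSF), with 15, 9 and 16 reads with LPS and 0 to 6 without.

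Of 19 chemokines listed, 15 were tested, 9 rose against both vehicles and 0 fell (4.92% and 3.33% over all genes). The medians were 2.93 and 2.17. Ccl20 was tested only through its LPS libraries. Ccl3 and Ccl4, which encode the macrophage inflammatory proteins 1-alpha and 1-beta, were at 4976, 3628 and 3582 and at 2209, 2495 and 1859 with LPS. In the vehicle libraries Ccl3 was at 439 to 699 and Ccl4 at 226 to 349 (2.96 and 2.61 for Ccl3, 3.06 and 3.01 for Ccl4). The monocyte chemokine Ccl2 was at 5934, 3280.2 and 4611 with LPS, 697, 463 and 622 with DMSO and 907, 927 and 1179.7 with EtOH, and its neighbour Ccl7 at 1155, 387 and 787, 62.6, 51.5 and 56.9 and 89.3, 98.6 and 125. In both, LPS replicate 2 was the lowest of the LPS libraries, while in Il1b, Nos2 and Ifit1 it was the highest. Cxcl3 (3.21 and 3.17) and Cxcl10 (3.03 and 3.10) rose, and Ccl9 rose least (1.57 and 1.25).

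Ccl5, Ccl22 and Cxcl11 were among the 6 that did not pass. Ccl5 was at 193, 446 and 148 with LPS and 94.4, 187 and 73.7 with DMSO, so the groups overlapped through LPS replicate 3 and DMSO replicate 5, and its log2FC was 1.09 and 1.31 (adjusted p 0.13 and 0.16). Cxcl1 had at most 2 reads in any library.

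Of 18 NF-kB subunits, inhibitors and regulators, 14 rose and 0 fell (4.92% and 3.33% over all genes). The medians were 1.10 and 1.13. Among the subunits, Nfkb1 rose (1.32 and 1.26), as did Nfkb2 (0.76 and 1.01), Relb (0.81 and 0.93) and Rel (0.45 and 0.50). Rela, which encodes the p65 subunit, was at 2232 to 2643 with LPS and 2105 to 2186 without, and did not pass (0.14 and 0.15, adjusted p 0.28 and 0.28). Among the inhibitors, Nfkbia was at 3310.0, 5584 and 4055 with LPS, 1268, 1818 and 1439.6 with DMSO and 1132, 1864 and 1379 with EtOH (1.5 ± 0.19 against DMSO and 1.56 ± 0.22 against EtOH). Nfkbiz, an atypical IkB protein that works with NF-kB in the nucleus, rose more (2.85 ± 0.14 against DMSO and 3.16 ± 0.18 against EtOH), from 152 to 273 in the vehicle libraries to 1509.6, 2155 and 1625. Tnfaip3 (1.34 and 1.83), Tnip1 (1.63 and 1.55), Traf1 (2.93 and 2.81) and the kinase gene Ikbke (2.17 and 2.06) rose as well. Nfkbie was at 0.44 and 0.11 and did not pass.

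Of 17 classical immediate early genes tested, 3 rose and 1 fell (4.92% and 3.33% over all genes), with medians of 0.13 and 0.40. Atf3, a repressor of the ATF family, rose (1.32 and 1.80), as did Ier3 (1.27 and 2.28) and Klf6 (0.59 and 0.60). Fosb fell (-1.53 and -1.02), from 50.5 to 123 in the vehicle libraries to 27.5, 36.9 and 34.7. Fos was at 476, 563 and 554 with LPS, 415, 541 and 500.2 with DMSO and 509, 665 and 623 with EtOH, which overlapped (0.13 and -0.17, adjusted p 0.49 and 0.43). Jun (0.15 and 0.12), Junb (0.32 and 0.57) and Ier2 (0.02 and 0.02) did not pass. Egr1 had 6 to 17 reads in any library, was tested against EtOH alone and did not pass (-0.25, adjusted p 0.76). Myc, with at most 2 reads, was not tested.

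Genes of negative feedback were a mixed group, with medians of 0.68 and 0.73. Of 18 tested, 9 rose and 0 fell (4.92% and 3.33% over all genes). Those that rose most act on cytokine messages and cytokine receptors, but not all genes of these kinds rose. Of the Zfp36 family, which also acts on messages, no tested member passed against both vehicles. Zfp36 rose against EtOH alone (0.95 and 1.17). Zfp36l2 fell against EtOH alone (-0.25 and -0.53), and Zfp36l1 did not pass (-0.19 and -0.24). Zc3h12a, which encodes the RNase Regnase-1, rose by 2.69 ± 0.13 against DMSO and 2.43 ± 0.10 against EtOH, and Zc3h12c by 1.95 and 1.75. Socs1 was at 66.3, 95.3 and 99.0 with LPS and 7.71 to 25.3 without (2.43 and 2.61), and Socs3 (1.90 and 1.65) and Cish (1.78 and 2.46), the other suppressors of cytokine signalling that passed, rose too. Irak3, an inhibitor of the receptor-proximal kinases, rose by 0.93 and 1.18. Of the MAP kinase phosphatases, Dusp16 (1.0 and 1.17), Dusp5 (0.82 and 0.98) and Dusp4 (0.45 and 0.42) rose. Dusp1 was at 107, 317 and 143 with LPS and 131, 247 and 177 with DMSO and did not pass (-0.08 and 0.23, adjusted p 0.91 and 0.78).

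Among genes that sense LPS and other microbial products, 11 of 22 tested rose and 0 fell (4.92% and 3.33% over all genes). The LPS receptor itself did not pass, with Tlr4 at 574, 512 and 537 with LPS, 558, 569 and 522 with DMSO and 571, 678 and 744 with EtOH (-0.02 and -0.29). Ly96 was at 0.43 and 0.20. The co-receptor gene Cd14 rose (0.99 and 0.77) from a high level, 11278 to 14459 in the vehicle libraries to 22407, 27488 and 22658. Of the other Toll-like receptors, Tlr2 (1.52 and 1.35), Tlr3 (1.10 and 0.96) and Tlr9 (1.57 and 1.54) rose. Tlr5, the receptor for flagellin, was not on this list and was the second deepest fall. It was at 64.3, 43.0 and 61.2 with LPS, 121, 206 and 141 with DMSO and 158, 190.5 and 134 with EtOH (-1.44 ± 0.24 against DMSO and -1.51 ± 0.20 against EtOH, adjusted p 0.0052 and 0.0031). The receptors therefore moved in different directions. Irak2 (1.66 and 1.62) and Myd88 (0.41 and 0.26) rose, whereas Irak4 (-0.17 and -0.16), Traf6 (0.01 and 0.09) and Ticam1 (0.36 and 0.54) did not pass.

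Nlrp3, Casp4 and Casp1, the inflammasome genes on the same list, rose. Nlrp3, the sensor of this complex, was at 4629.9, 5483 and 4316 with LPS and 1931 to 2460 without (1.19 and 1.14). Casp4, the mouse gene of caspase-11, which binds LPS in the cytosol, rose further (2.26 and 2.19), from 82.5 to 215 without LPS to 514, 806 and 625. Casp1 rose by 0.85 and 0.69, and Clec4e by 2.09 and 1.83.

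Interferon-response genes had the highest share of rises of the 17 lists. Of 23 tested, 20 rose against both vehicles and 0 fell (4.92% and 3.33% over all genes). The medians were 1.98 and 1.86. Ifit1, an antiviral protein that binds viral RNA, was at 2755, 5409.9 and 3619 with LPS, 198, 728 and 441 with DMSO and 237, 902 and 449 with EtOH (3.24 ± 0.42 against DMSO and 3.04 ± 0.43 against EtOH). Rsad2, the antiviral enzyme viperin, was at 2249, 3624 and 2599, 198, 539 and 299 and 206, 586 and 286 in the same order (3.12 ± 0.32 against DMSO and 3.08 ± 0.34 against EtOH). Gbp5 (4.09 and 3.16), Mx1 (3.5 and 2.77) and Cmpk2 (3.46 and 3.02) were among the largest rises of the list. Irf9 (0.98 and 1.08) and Stat2 (1.45 and 1.73), which are parts of the factor that interferon-beta activates, rose.

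Irf1, Irf7 and Isg20 did not pass. Irf7, the master factor of later interferon production, was at 1659.6, 4563 and 2120.3 with LPS, 499, 2594 and 856 with DMSO and 453, 2489.6 and 838 with EtOH, and the groups overlapped through the replicates numbered 5 (1.28 and 1.36, adjusted p 0.16 and 0.19). The summed level of the list was 22639, 41866 and 27583 with LPS, 4721, 13472 and 7240 with DMSO, and 4717, 13676 and 6943 with EtOH. LPS replicate 2, DMSO replicate 5 and EtOH replicate 5 were thus 1.5 times or more above the other libraries of their groups. With these 3 libraries left out together, 23 of 23 rose, with medians of 2.12 and 2.2. The 3 had been picked after their high level on this list was seen, so this count is no independent check. The labels do not tie LPS libraries to vehicle libraries, so whether the 3 came from 1 experiment was not tested.

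**Figure D3:**
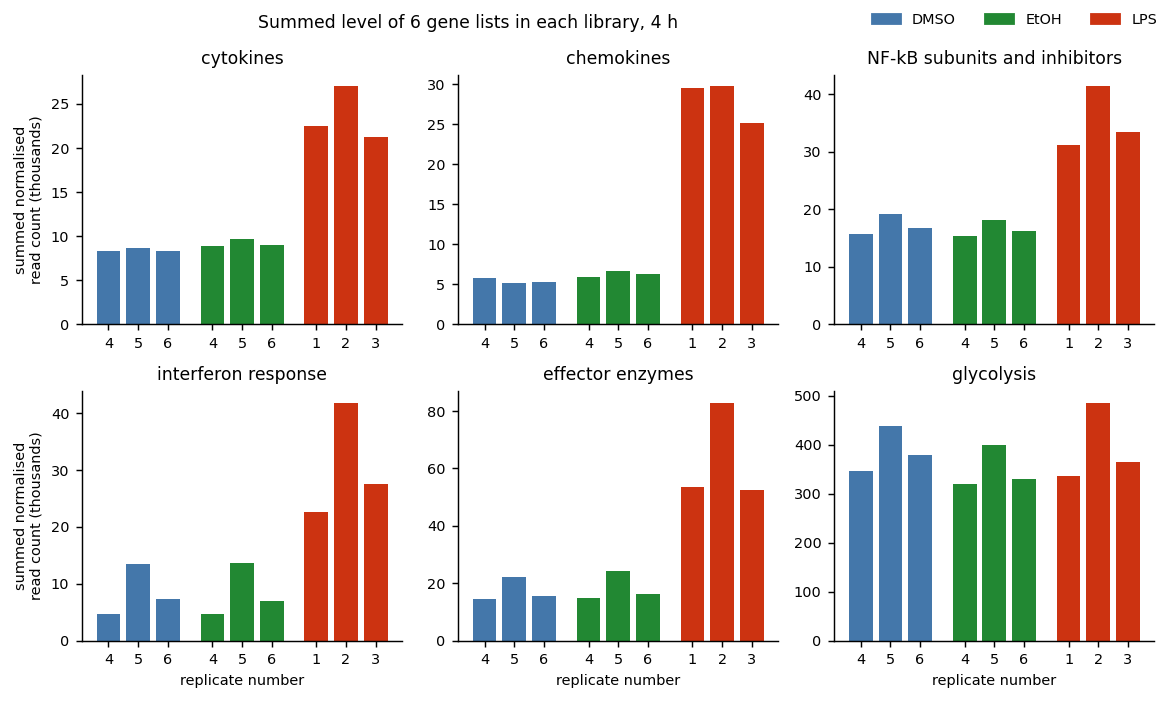
Summed normalised read count (in units of 1000) of 6 gene lists in each of the 9 libraries at 4 h, by replicate number within DMSO, EtOH and LPS. The cytokine, chemokine, NF-kB, interferon and effector lists were higher in every LPS library than in any vehicle library, glycolysis overlapped, and replicates 5 and 2 stood highest on the interferon list (13472, 13676 and 41866 reads).

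Effector enzymes and secreted proteins also rose, 10 of 16 tested, with 1 fall (4.92% and 3.33% over all genes). The medians were 1.39 and 1.12. Nos2 was at 1035, 4359.9 and 1409 with LPS, 20.2, 255 and 73.7 with DMSO and 11.6, 128 and 11.1 with EtOH (4.64 ± 0.82 against DMSO and 6.10 ± 0.90 against EtOH). Its standard errors were among the widest of the named genes, and the highest value of each group again came from the 3 libraries named above. The cyclooxygenases parted. Ptgs2, the inducible enzyme of prostaglandin synthesis, was at 18910.2, 24709 and 17485 with LPS, 2674, 4239 and 3178 with DMSO and 2687, 4879.6 and 3524 with EtOH (2.61 and 2.49), and Ptgs1, the constitutive one, fell from 1841 to 2304 in the vehicle libraries to 1416, 1283 and 1353 (-0.54 and -0.58). Ptges, which makes prostaglandin E2 from their product, rose (1.32 and 1.25). Acod1 was at 7579.8, 11311 and 7610.3 with LPS and 470.1 to 1160.1 without (3.81 and 3.69). Sod2 (1.03 and 0.96), Saa3 (2.24 and 2.09), Lcn2 (3.80 and 3.67) and Cybb, a subunit of the phagocyte NADPH oxidase (0.94 and 0.84), rose. Arg1 was at 25.6 to 30.6 with LPS and 12.5 to 44.0 without, and did not pass.

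On the cell surface, 10 of 17 tested activation molecules rose and 0 fell (4.92% and 3.33% over all genes). The medians were 0.95 and 1.0. Cd69, an early activation marker of lymphocytes and other leukocytes, was at 363, 435 and 397 with LPS, 49.1, 66.2 and 55.8 with DMSO and 90.3, 89.0 and 101 with EtOH (2.79 and 2.08). The death receptor gene Fas (2.71 and 2.72), the co-stimulatory Cd40 (1.76 and 2.02) and the TNF receptor 2 gene Tnfrsf1b (1.75 and 1.78) rose, and Cd44 rose least (0.55 and 0.67). Cd86 was at 0.33 and 0.33 and Tnfrsf1a, the other TNF receptor, at 0.25 and 0.22; neither passed.

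Phagocytic and chemotactic receptors moved less evenly, with 5 of 19 tested rising and 1 falling (4.92% and 3.33% over all genes). Hcar2, a receptor for butyrate and nicotinic acid, was at 464, 846 and 569.6 with LPS, 87.7, 208 and 154 with DMSO and 76.7, 103 and 49.2 with EtOH (2.10 and 3.04). Fpr1 (1.74 and 1.55), C3ar1 (1.45 and 1.08) and the scavenger receptor gene Msr1 (1.24 and 0.80) rose. Cxcr4, the receptor for CXCL12, fell to 141, 101 and 128 with LPS, from 259, 282 and 244 with DMSO and 293, 284 and 376 with EtOH (-1.09 ± 0.15 against DMSO and -1.36 ± 0.16 against EtOH, adjusted p 0.0022 and 0.0017). The Fc receptor genes Fcgr1 (0.20 and -0.08) and Fcgr3 (-0.20 and -0.40) did not pass.

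**Figure D4:**
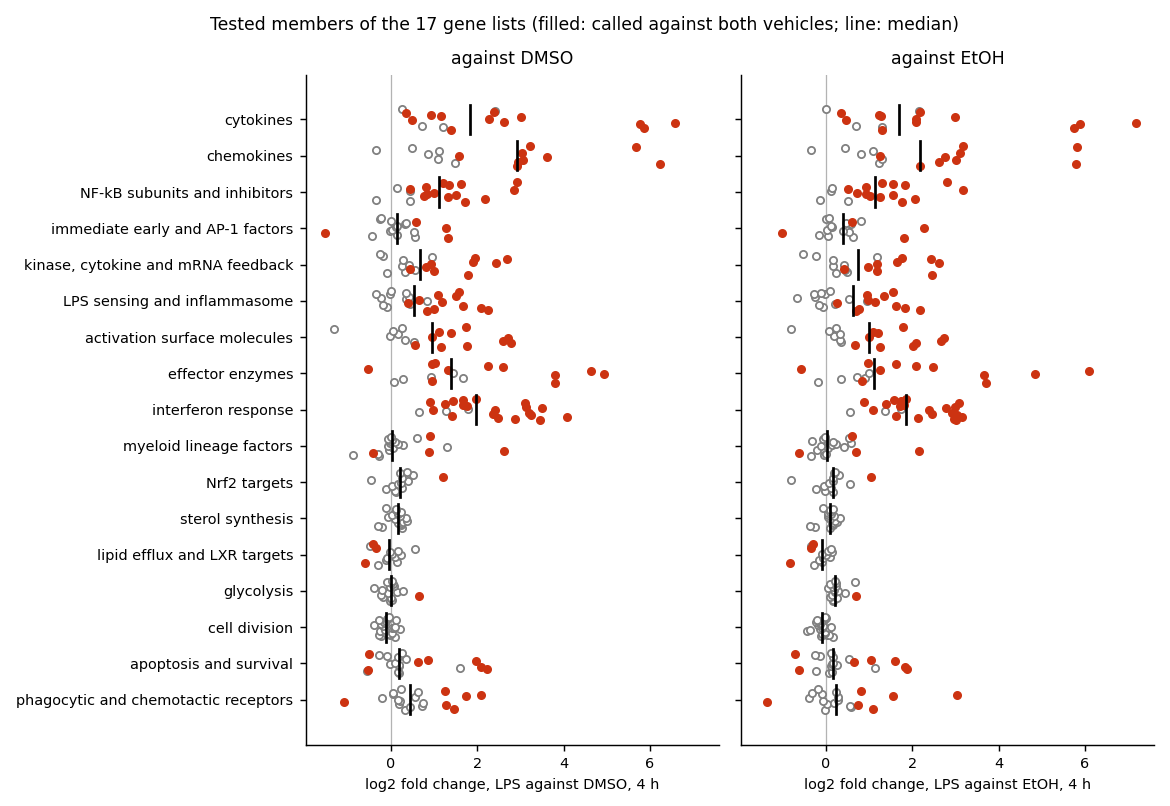
Log2FC of every tested member of 17 gene lists, LPS against DMSO (left) and against EtOH (right), 4 h. Filled points passed against both vehicles, open points did not, and the line is the list median, which was 1.98 and 1.86 for interferon response and -0.11 and -0.09 for cell division.

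With LPS replicate 2, DMSO replicate 5 and EtOH replicate 5 left out, and genes tested at a value of at least 10 in 2 libraries, the rises were 13 of 17 cytokines, 11 of 13 chemokines (with 1 fall), 15 of 18 NF-kB genes, 3 of 17 immediate early genes (with 1 fall), 12 of 18 feedback genes, 11 of 22 sensing genes, 11 of 16 effector genes (with 1 fall), 11 of 17 surface molecules and 5 of 19 phagocytic and chemotactic receptors (with 1 fall). The counts of rises thus stayed the same or went up when the libraries that stood apart were absent. Over all genes the shared rises also went up, from 558 of 11349 to 754 of 11396, and the falls from 378 to 487. These libraries were picked after their values were seen, and leaving out such libraries tends to narrow the spread within groups. The counts are therefore no independent check of the programme.

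Of 20 myeloid lineage factors tested, 3 rose and 1 fell (4.92% and 3.33% over all genes). Cebpd rose from 315 to 517 in the vehicle libraries to 1731, 2565 and 2179 (2.62 and 2.15). Cebpb (0.88 and 0.69) and Spi1, which encodes PU.1 (0.91 and 0.60), rose less, and Cebpa, of the same C/EBP family as Cebpb and Cebpd, fell from 608 to 760 down to 439, 502 and 479 (-0.43 and -0.62). The 3 C/EBP genes thus did not move in 1 direction. Irf8 was at 0.16 and 0.23 and did not pass.

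Of 20 genes of apoptosis and survival, 5 rose and 2 fell (4.92% and 3.33% over all genes). Gadd45a (1.97 and 1.60), Gadd45b (0.85 and 1.03) and Cflar, an inhibitor of death receptor signalling (0.62 and 0.65), rose. Bcl2a1a (2.23 and 1.88) and Bcl2a1d (2.10 and 1.83) rose too, but these are near-identical copies that share reads, so the split between them is uncertain. Bcl2a1b, of the same group of copies, did not pass (1.59 and 1.13). Bcl2 fell from 261 to 327 down to 244, 171 and 194 (-0.54 and -0.62), and the p53 target gene Trp53inp1 fell as well (-0.51 and -0.72).

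Calls among metabolic and proliferative genes are given beside the 8.25% of all genes that passed against both vehicles. Of 24 cell division genes tested, 0 passed against both vehicles at an adjusted p below 0.05, and the medians were -0.11 and -0.09. Against DMSO alone Bub1 and Cenpf fell, and against EtOH alone Ccne1, Ccnd1 and Mcm2 fell. Of 17 glycolysis genes 1 rose, Hif1a, which encodes the transcription factor HIF-1 alpha (0.66 and 0.69), and none of the enzymes did. Of 19 sterol synthesis genes 0 passed against both, and of 14 Nrf2 targets 1 rose, the cystine transporter gene Slc7a11 (1.20 and 1.04). Against DMSO alone 4 more genes of this list rose, Srxn1 (0.51 ± 0.11), Txnrd1 (0.36 ± 0.09), Prdx1 (0.25 ± 0.07) and Nfe2l2 (0.40 ± 0.07). Nfe2l2 encodes Nrf2 itself. Of 14 genes of lipid efflux and LXR targets 3 fell, Srebf1 (-0.42 and -0.30), Scd1 (-0.34 and -0.34) and Abca9 (-0.59 and -0.83). Summed over the list, cell division was at 70592 to 75419 with LPS and 78852 to 82666.5 in the vehicle libraries. Lipid efflux sums were also lower with LPS, at 74296 to 80174 against 82937 to 98324. Nrf2 list sums were higher, at 44902 to 48320.5 against 38328 to 41936. Sterol synthesis sums overlapped. None of these sums was tested. Glycolysis sums were 337152, 486123 and 365039 with LPS, 347050, 437673 and 379159 with DMSO, and 320087, 399648 and 330649 with EtOH. LPS replicate 2 and both replicates 5 were again the highest of their groups. With the 3 libraries left out together, 1 sterol gene rose and 1 fell, 2 Nrf2 targets rose, and the cell division count stayed at 0.

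The deepest falls were shallow beside the rises and came from genes of varied function. Arhgef18, a guanine nucleotide exchange factor, was at 55.1, 28.7 and 63.3 with LPS, 151, 146 and 148 with DMSO and 202, 158 and 216 with EtOH (-1.66 ± 0.27 against DMSO and -2.01 ± 0.28 against EtOH, adjusted p 0.0052 and 0.0039). Lbh, a transcription cofactor, was at 20.4, 24.6 and 27.6, 53.9, 71.5 and 70.6 and 85.4, 96.7 and 86.4 in the same order (-1.4 ± 0.22 against DMSO and -1.85 ± 0.19 against EtOH). For both, the highest LPS library was below 0.6 times the lowest vehicle library. Pik3ip1, an inhibitor of PI3 kinase, fell to 31.6, 47.1 and 30.6 from 78.5 to 117 (-1.54 and -1.17). Lifr, the receptor for LIF, fell to 124, 127 and 156 from 238 to 369 (-1.10 and -1.28), while its ligand gene Lif rose (1.16 and 1.28). Sgsh, a lysosomal sulfatase, fell (-1.08 and -1.09), as did Tbc1d4, a Rab GTPase regulator (-1.05 and -1.04). The other deep falls were Dgkg, Fam131a, Pcdh1 and Cxxc5, with log2FC from -1.08 to -1.27. The calls of Dgkg, Fam131a and Pcdh1 were lost against both vehicles, and that of Pik3ip1 against EtOH, when some single libraries were left out.

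When the vehicles were compared with each other as unpaired groups, 0 of 11458 genes passed with limma (0.0%). Before adjustment, 1051 of them were below 0.05, while edgeR called 0 genes and DESeq2 79. The replicate numbers 4 to 6 did pair DMSO with EtOH libraries, and with the number as a block 876 genes passed. Genes that passed against a single vehicle were 667 for DMSO and 222 for EtOH among those tested in both. The sign was the same in the other comparison for 659 and 221 of them. In the paired comparison of the vehicles, 28% of the 667, 25.2% of the 222 and 11.2% of the 936 shared genes differed. Over all genes it was 876 of 11458. The vehicle libraries are the same in all of these comparisons, so these shares are descriptions.

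Several listed genes passed against 1 vehicle and not the other. Tlr7, which senses single-stranded RNA, rose against DMSO (0.34 ± 0.09) and was at -0.12 ± 0.08 against EtOH. DMSO libraries were at 1795, 1543 and 1611, EtOH libraries at 2291, 2107 and 2410.5 and LPS libraries at 2208, 1890.0 and 2194, so the LPS libraries overlapped with EtOH and lay above DMSO. Plin2, a lipid droplet protein, rose against DMSO (0.57 ± 0.06) and was at 0.11 ± 0.09 against EtOH. Hmox1, heme oxygenase 1, went the other way, at 0.17 ± 0.11 against DMSO and 0.56 ± 0.15 against EtOH, where it passed. In the paired limma fit of the vehicles (DMSO minus EtOH), Tlr7 differed by -0.46 (adjusted p 0.00012), Plin2 by -0.45 (0.00016) and Hmox1 by 0.40 (0.00089). These genes were chosen after their values were seen, and the same vehicle libraries enter both comparisons, so these p-values are no independent support. Other listed genes passed against 1 vehicle without a vehicle difference in the paired fit. Examples were Adgre1 (0.62 and 0.63, paired adjusted p 0.96) and Birc3 (0.43 and 0.50, paired adjusted p 0.49).

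The 24 h groups of the same treatments show how much of the early programme was different later. In a fit of the 18 libraries of both times, the median log2FC of the 558 genes that rose at 4 h was 0.88 and 0.79 at 4 h and 0.55 and 0.53 at 24 h. For the 378 that fell it was -0.53 and -0.50 at 4 h and -0.15 and -0.16 at 24 h. Tested as the difference between the times, 120 of the 558 had a lower LPS effect at 24 h against both vehicles, 25 had a higher one and 413 had no call. Over all genes tested, 3.31% were lower and 4.04% higher. Of the 378 falls, 119 had a more positive effect at 24 h, 0 a more negative one, and 259 had no call. The 4 h values that chose these genes also enter this difference, so it leans towards smaller effects at 24 h.

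Beside the 120 of 558 over all shared rises, counts for the gene lists were as follows. Of the 9 chemokines that rose at 4 h, 5 had a lower effect at 24 h, as did 6 of the 10 surface molecules, 5 of the 12 cytokines, the 3 immediate early genes that had risen and 2 of the 20 interferon-response genes. The median log2FC of the tested interferon-response genes was 1.98 and 1.85 at 4 h and 1.08 and 1.14 at 24 h in this fit, so the missing calls do not show that their rise lasted. Ccl3 went from 2.95 and 2.61 at 4 h to 0.59 and 0.70 at 24 h and Ccl4 from 3.06 and 3.01 to 0.65 and 0.70. Osm (0.92 and 1.23 at 4 h, -0.30 and -0.31 at 24 h), Csf1 (1.4 and 1.3, -0.30 and -0.20), Atf3 (1.32 and 1.80, -0.15 and -0.27), Ier3 (1.26 and 2.27, -0.22 and -0.24) and Klf6 (0.59 and 0.59, -0.28 and -0.35) had positive values early and negative ones later. Il1b had no call, at 6.58 and 7.17 and 6.06 and 6.19. Cybb (0.94 and 0.83, 2.08 and 2.15), Msr1 (1.24 and 0.80, 3.06 and 2.59) and Irak3 (0.92 and 1.17, 2.17 and 2.10) had a larger effect at 24 h. Cebpa, which fell at 4 h, was at 0.13 and 0.15 at 24 h, and the difference passed.

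**Figure D5:**
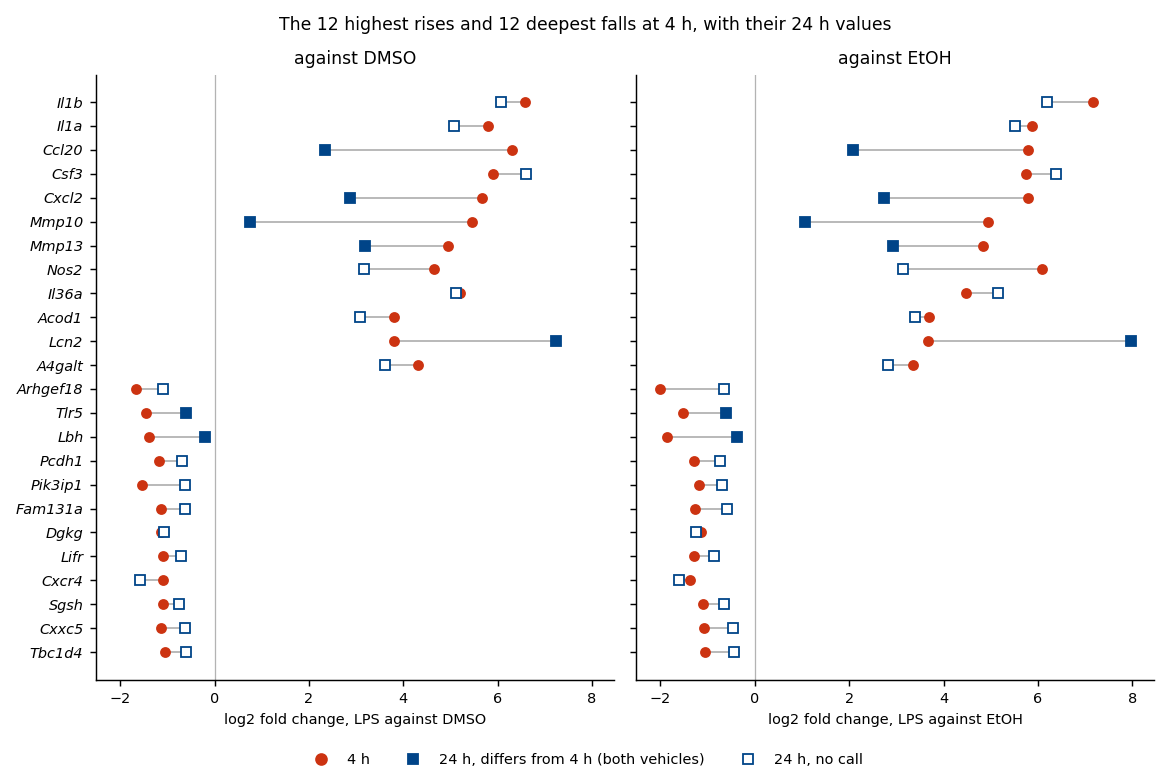
Log2FC of the 12 largest rises and 12 deepest falls at 4 h (circles) with the 24 h value (squares), against DMSO (left) and EtOH (right), from 1 fit of 18 libraries. Filled squares mark genes whose LPS effect differed between the times against both vehicles. These were Ccl20, Cxcl2, Mmp10 and Mmp13 (lower at 24 h), Lcn2 (higher) and Tlr5 and Lbh (less negative).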

How the data were processed

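RNA-seq libraries of BV-2 cells were paired-end, from poly(A) RNA. Per the labels and the study's methods, the authors used Cutadapt 4.4 and Trimmomatic 0.39 for trimming, HISAT2 2.2.1 for alignment to GRCm39 and HTSeq 2.0.3 for counting per Ensembl gene, and compared groups with DESeq2 1.40.2. The strand setting was not given in the sources used here, so overlapping genes on opposite strands could not be told apart. The deposited tables hold signal, that is, read counts divided by DESeq2 size factors, and the authors' own log2 fold changes with standard errors, test statistics and p-values, which were not used. Of 30 tables, 8 were used.

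Dividing each library column by its smallest step gave whole reads for 100% of 667599 values (tolerance 0.01 read), and 0 of 453474 values differed between tables. The reads gave depth, counting intervals, the edgeR and DESeq2 alternatives and the levels printed, for which they were divided by median-of-ratios size factors over the 9 libraries. The 9 pairs of libraries within groups differed beyond sampling noise (chi-square per degree of freedom 4.83 to 31.0). Nothing in the files says that the replicates came from separate cultures beyond the statement of 3 experiments, so p-values measure the spread between these libraries.

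limma 3.58.1 (lmFit, eBayes with trend, R 4.3.3) was run on log2 of the authors' normalised count plus 1, for each pair of groups on its 6 libraries, over genes with a value of at least 10 in at least 3. Adjusted p is Benjamini-Hochberg over all genes tested. The difference between times was a contrast in 1 fit of 18 libraries. DMSO and EtOH libraries of the same number deviated together (r 0.60, 0.74 and 0.28 over 10067 genes), which paired them. LPS and vehicle libraries share no numbers. The code was checked on simulated data. The genes named are the 12 largest rises and 12 largest falls by the smaller of their log2FC, among genes called against both vehicles with no overlap and a mean of 50 or more where it was higher, and for each list the smallest and largest differences that passed and known members that did not. Some genes that the rule names are not reported here. Where further members are named, they were chosen after their values were seen. The comparison, the gene lists and the members were chosen with earlier results of these data known. Promoter windows are the 300 bases before the canonical GENCODE start. Alternatives were edgeR 4.0.16, DESeq2 1.42.0, pseudocounts of 5 and 0.5, no filter on low values, a log2 limit of 1, all 9 libraries in 1 fit, replicate blocks and leaving out libraries.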

Additional observations from a re-analysis of the deposited data

Results flagged for a closer look

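The LPS effect differed between 24 h and 4 h, against both vehicles and in the same direction, for 888 of 12081 genes, by a contrast of the differences in limma at an adjusted p below 0.05. Over all genes tested, 4.04% had a more positive and 3.31% a more negative effect at 24 h. Of the 24 genes with the largest rises and falls at 4 h, 7 were among the 888. The 24 were picked by their 4 h values, which enter the difference, so it leans towards smaller effects at 24 h. In log2 units, as the effect at 24 h minus that at 4 h, Ccl20 differed by -3.98 against DMSO and -3.72 against EtOH, Cxcl2 by -2.81 and -3.06, Mmp10 by -4.71 and -3.87, and Mmp13 by -1.76 and -1.92. The differences of Ccl20 and Mmp10 rest on vehicle libraries with 0 to 2 reads at 4 h. Lcn2 differed the other way, by 3.43 and 4.31. Among the falls, Tlr5 differed by 0.843 and 0.906 and Lbh by 1.20 and 1.47.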

How the results depend on the processing

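The 936 shared calls became 940 and 929 with pseudocounts of 5 and 0.5, 809 without a filter on low values, 936 with edgeR, 1087 with DESeq2 and 1169 with all 9 libraries in 1 fit. With a log2FC limit of 1 the counts were 324 against DMSO, 287 against EtOH, 227 shared and 160 for the difference between times. Leaving out 1 library at a time gave 663 to 1636 calls against DMSO, 524 to 1176 against EtOH, 425 to 899 shared, and 674 to 911 for the times. Leaving out LPS replicate 3 gave 739, 540 and 425 (DMSO, EtOH, shared). EtOH replicate 6 left 524 against EtOH and 495 shared, EtOH replicate 4 left 535 and 496, DMSO replicate 6 left 663 against DMSO and 573 shared, and DMSO replicate 5 left 1064 against DMSO. The cause was not tested beyond the smaller number of libraries. An alternative chosen after seeing the data left out LPS replicate 2 with DMSO replicate 5 and EtOH replicate 5, tested genes with a value of at least 10 in at least 2 libraries, and gave 1889, 1716 and 1241 shared calls, which held 836 of the 936 (89.3%).

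No paired analysis of LPS against a vehicle was run, because the labels give them no shared replicate numbers. Whether LPS and vehicle libraries came from the same experiments was not tested, and the unpaired fits take no account of it. With the replicate block, DMSO against EtOH had 876 calls (0 without it, 79 with DESeq2, 1 without DMSO replicate 4). Across times, not every same-numbered pair deviated together (r 0.00 to 0.37), and the block moved the 888 calls to 1579 and the interferon-response genes with a lower effect at 24 h from 2 to 11 of 20. Among the 24 largest changes, the calls lost with single libraries left out were those of Dgkg, Pcdh1, Fam131a and Pik3ip1, and that of Fam131a was also lost without the filter. Listed genes lost more. Over the 24 and all members of the gene lists, counted separately against each vehicle, 64 calls were lost without LPS replicate 3. The number was 40 without EtOH replicate 6, 40 without DMSO replicate 6 and 33 without EtOH replicate 4. None of the named calls reversed under these alternatives. Genes that did not reach the filter, such as Ifnb1, were not tested in the comparisons reported.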
